A study of Mus musculus with 18 samples.

Results

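Goblet cell genes are described here as 9 genes taken by name (Muc2, Fcgbp, Clca1, Zg16, Tff3, Spink4, Agr2, Spdef and Atoh1), all of which were among the 10897 genes of the deposited table. They were followed through 18 RNA sequencing libraries of mouse colorectal tissue, 6 in each of the groups GF-AOMS, GF-AOM and Control. Every group consisted of C57BL/6J males, 10 weeks old and kept on standard chow, all libraries are labelled as 1 batch, and colon RNA was depleted of ribosomal RNA. The labels describe the groups in 2 ways. By the sample characteristics, GF-AOMS were germ-free mice with colorectal cancer induced by azoxymethane (AOM, a colon carcinogen) and exposed to cigarette smoke, GF-AOM were germ-free mice given AOM without smoke, and Control were wild-type SPF (specific pathogen-free) mice that also had the AOM-induced cancer. By the treatment protocol, the same groups were AOM with smoke, AOM, and normal controls, and the housing is given as an SPF facility for every mouse. Smoke separates GF-AOMS from GF-AOM under both readings, whereas what separates either GF group from Control is not settled by the labels. No label states that each library came from its own mouse, so the p-values refer to the spread among libraries, which may be technical.

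Goblet cells are the mucus-secreting cells of the intestinal epithelium. Their differentiation starts with Atoh1, a basic helix-loop-helix transcription factor that is switched on where Notch signalling is low, and their maturation depends on Spdef, a transcription factor of the ETS family. Mature cells fold and glycosylate the gel-forming mucin Muc2, store it in granules and release it as the mucus that keeps bacteria away from the colon surface.

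The upstream sequences of 3 genes are shown because Muc2 and Spdef moved together across libraries whereas Fcgbp, which lies on the same chromosome as Muc2, did not move with Muc2. RefSeq promoters on GRCm38.p6 were matched for 5 of the 9 genes (Muc2, Fcgbp, Agr2, Spdef and Atoh1). The 250 bases before the RefSeq start are printed 5′ to 3′ on the strand of the gene, for Muc2 at chr7:141690090-141690339 on the plus strand, for Spdef at chr17:27728952-27729201 on the minus strand and for Fcgbp at chr7:28070986-28071235 on the plus strand. Capitals mark the searched motifs.
Muc2: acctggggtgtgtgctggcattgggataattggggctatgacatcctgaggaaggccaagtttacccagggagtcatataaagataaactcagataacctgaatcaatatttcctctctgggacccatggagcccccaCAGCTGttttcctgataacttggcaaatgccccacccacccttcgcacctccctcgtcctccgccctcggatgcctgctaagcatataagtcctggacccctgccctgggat
Spdef: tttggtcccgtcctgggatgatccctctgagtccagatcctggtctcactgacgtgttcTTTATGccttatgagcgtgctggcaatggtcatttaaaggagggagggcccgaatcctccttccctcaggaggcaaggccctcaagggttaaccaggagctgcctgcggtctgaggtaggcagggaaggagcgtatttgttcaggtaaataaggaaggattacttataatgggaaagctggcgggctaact
Fcgbp: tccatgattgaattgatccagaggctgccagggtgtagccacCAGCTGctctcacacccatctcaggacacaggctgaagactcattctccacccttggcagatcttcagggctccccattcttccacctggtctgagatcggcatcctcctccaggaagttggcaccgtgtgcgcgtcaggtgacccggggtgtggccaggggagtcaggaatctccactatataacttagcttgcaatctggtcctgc
Of 4 motifs searched on both strands, the E-box CAGCTG, bound by Atoh1 and other factors of its class, began 112 bases before the start of Muc2 and 208 bases before that of Fcgbp. It was present in 13.0% of 32851 promoter windows of the same length. TTTATG, the core of Cdx factors, began 191 bases before the start of Spdef and, on the other strand, 47 bases before that of Agr2, and was present in 10.8% of all windows. The ETS core CCGGAT (4.94% of all windows) and the forkhead core TGTTTAC (3.17%) were not found in these letters in any of the 5 windows. The 4 motifs do not overlap each other in the windows printed, and a match is a description of the letters only.

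In the coordinates of the deposited table, which match GRCm38, Muc2 lies on chromosome 7 at 141690340 to 141754690 and Fcgbp on the same plus strand at 28071236 to 28120862. Zg16 lies on the minus strand of chromosome 7 at 127050156 to 127087286. Tff3 and Spdef share the minus strand of chromosome 17, at 31125306 to 31129646 and 27714352 to 27728953. Clca1 is on chromosome 3 at 145003817 to 145032776 (minus), Agr2 on chromosome 12 at 35992907 to 36004087 (plus), Atoh1 on chromosome 6 at 64729125 to 64731245 (plus) and Spink4 on chromosome 4 at 40920052 to 40931395 (plus).

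The libraries held 48953539 to 79233656 counts each, so each goblet cell gene was counted deeply, with at least 1329 counts per library even for Atoh1. Hoxa13 and Hoxb13, which mark the distal end of the colon, separated the Control libraries. All 12 GF libraries had 24.7 to 53.5 CPM of Hoxa13 (CPM, counts scaled to a common library size after TMM, a correction for library composition), and Control replicates 1 and 2 had 42.0 and 38.7 CPM. Control replicates 3 to 6 had 0 to 3.05 CPM, so results against Control are also given without either part of the Control group. The 9 epithelial markers were present in every library, with a summed level of 6895 to 9760 CPM in the GF-AOMS libraries, 6007 to 8591 CPM in GF-AOM and 8502 to 13473 CPM in Control. The labelled tissue carries its epithelial markers, and all 9 goblet cell genes had at least 1 FPKM in all 18 libraries, the level that genes of the table reach in at least 15.

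Levels between genes were compared in FPKM (a level scaled to gene length and library size), as medians over 18 libraries. Spink4, a Kazal-type protease inhibitor secreted by goblet cells, stood highest with 3106 FPKM, and ranked between 5 and 29 among all genes of a library. Agr2, a disulphide isomerase of the endoplasmic reticulum that Muc2 needs for its assembly, followed with 1547 FPKM, and Clca1, a secreted metalloprotease that processes Muc2, with 1217 FPKM. Zg16, a lectin that binds Gram-positive bacteria, had 924.6 FPKM and Tff3, a trefoil peptide of epithelial repair, 892.1 FPKM. These adjoining genes were not clearly ordered: Agr2 exceeded Clca1 in 14 of 18 libraries, Clca1 exceeded Zg16 in 12, and Zg16 exceeded Tff3 in 8. Muc2 had 468.9 FPKM, below Tff3 in 15 of 18 libraries, and Fcgbp, a large mucus protein bound to Muc2, had 216.8 FPKM, below Muc2 in all 18. The transcription factors came last, Spdef with 53.8 FPKM and Atoh1 with 23.7 FPKM, and Spdef exceeded Atoh1 in all 18 libraries. The 9 genes together took 1.52% to 2.99% of the counts of a GF-AOMS library, 1.34% to 2.82% in GF-AOM and 1.19% to 2.77% in Control.

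Smoke, the contrast on which both readings of the labels agree, left no goblet cell gene called. In GF-AOMS against GF-AOM, 0 of the 9 genes passed an adjusted p of 0.05 in edgeR's quasi-likelihood test (Benjamini-Hochberg over 10897 genes), and 0% of all genes did. At an unadjusted p under 0.05 the count was 0 of 9 in edgeR, in DESeq2 and in limma, against 1.09% of all genes in edgeR. The log2 differences ran from -0.30 for Muc2 to 0.37 for Atoh1, with 2 positive and 7 negative and a median of -0.12, where the median of all genes was 0.01. The value ranges of the groups overlapped for all 9 genes, and 0.0642% of all genes had ranges that did not. In bulk tissue, fewer goblet cells and less of a transcript per cell cannot be told apart for any of these genes.

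Atoh1, the lineage factor, had the smallest p of that contrast. Its lowest, median and highest levels were 37.7, 69.0 and 86.5 CPM in the GF-AOMS libraries, against 38.2, 49.6 and 59.3 CPM in GF-AOM. The GF-AOM range lay wholly inside the GF-AOMS range, and 4 of 6 GF-AOMS libraries lay above the GF-AOM mean. The log2 difference was 0.37 (SE 0.186, interval -0.02 to 0.77) with an unadjusted p of 0.0601 and an adjusted p of 1 in edgeR. The 95% intervals of the difference between smoked and unsmoked groups were narrowest for Atoh1, Spdef (-0.66 to 0.21), Zg16 (-0.39 to 0.66) and Muc2 (-0.84 to 0.24), and reached about a log2 unit either way for Clca1 (-1.19 to 0.95), Fcgbp (-1.16 to 0.81) and Tff3 (-0.99 to 0.97).

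**Figure D1:**
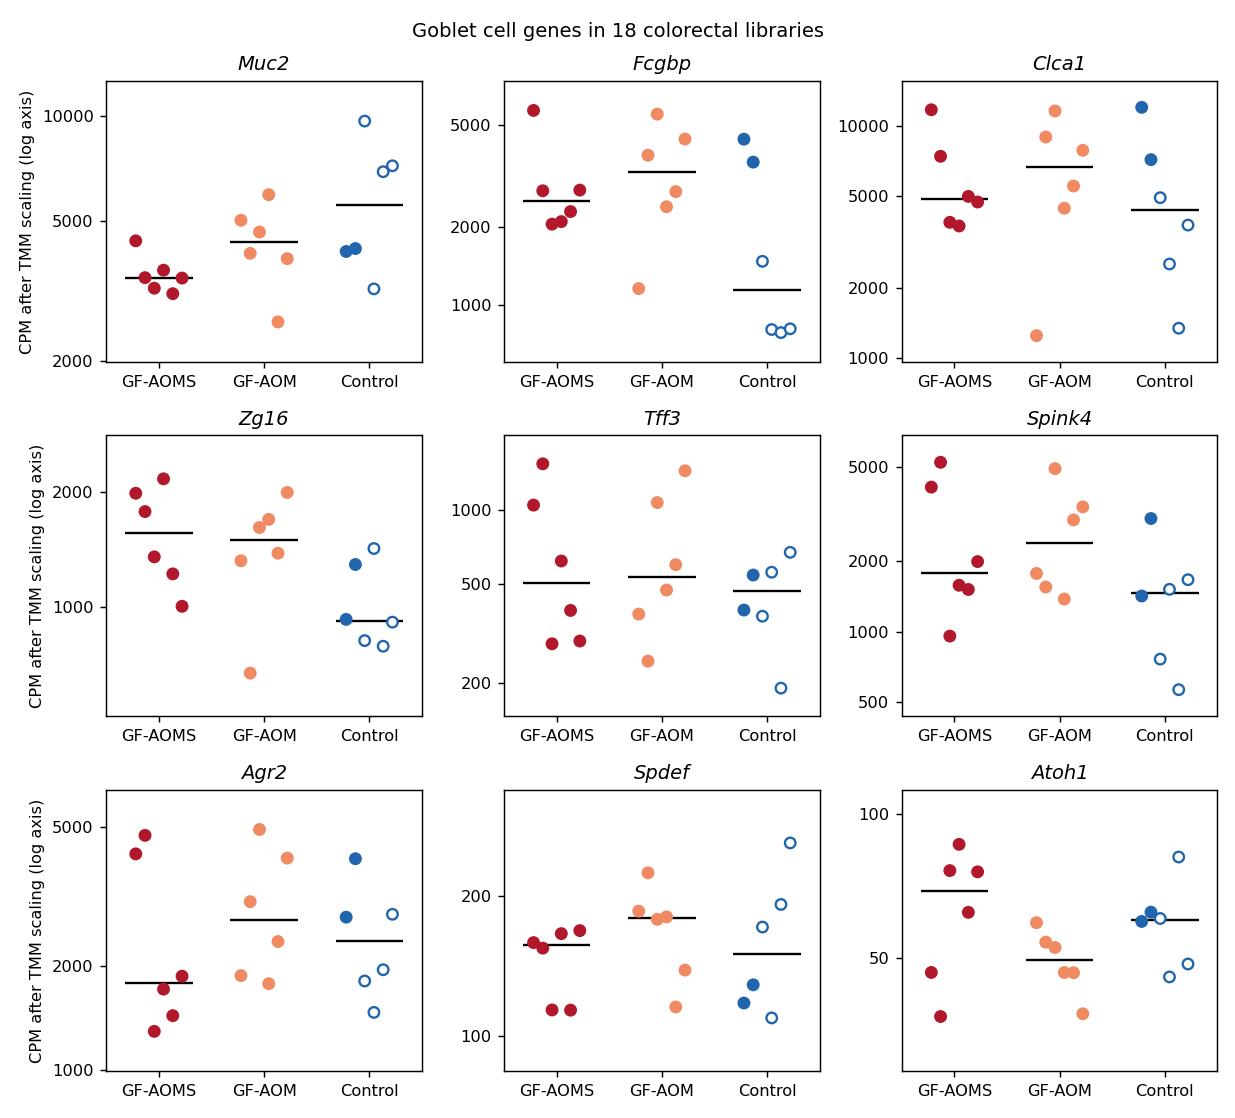
Level of each goblet cell gene in CPM after TMM scaling (log axis, a range of its own for each gene) in the 18 libraries; points are libraries, bars are group medians, and open points are Control replicates 3 to 6, whose Hoxa13 level was 0 to 3.05 CPM. The groups overlap for every gene, and for Fcgbp the open points lie at 782 to 1479 CPM, below 11 of the 12 GF libraries.

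Against Control, the structural mucin and the proteins secreted with it had differences of either sign. In GF-AOMS against Control, 0 of 9 genes passed the adjusted threshold in edgeR, where 0.734% of all genes did (0.11% higher and 0.624% lower), and 2 of 9 had an unadjusted p under 0.05, where 16.2% of all genes did. DESeq2 and limma likewise called 0 of 9 and gave 2 with an unadjusted p under 0.05. In GF-AOM against Control, 0 of 9 passed where 0.00918% of all genes did, and 0 of 9 had an unadjusted p under 0.05 where 15.7% did. DESeq2 called 0 with 1 under 0.05, and limma 0 with 2. Both comparisons share the Control libraries, and in each 7 of the 9 log2 differences were positive and 2 negative, with medians of 0.20 in GF-AOMS and 0.32 in GF-AOM against all-gene medians of 0.006 and -0.004. No goblet cell gene had group ranges that did not overlap, which 0.798% of all genes had in GF-AOMS against Control and 0.762% in GF-AOM against Control.

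Muc2, the gel-forming mucin itself, had the lowest mean in GF-AOMS and the highest in Control. The lowest, median and highest levels were 3116, 3456 and 4405 CPM in the GF-AOMS libraries, 2589, 4362 and 5961 CPM in GF-AOM, and 3215, 5557 and 9653 CPM in Control. All 6 GF-AOMS libraries lay below the Control mean, 1 of 6 GF-AOM libraries lay above it, and Control replicates 1, 2 and 4 lay within both GF ranges. The log2 difference was -0.73 in GF-AOMS against Control (SE 0.26, unadjusted p 0.0117, adjusted p 0.197 in edgeR) and -0.43 in GF-AOM against Control (SE 0.259, adjusted p 0.385). The 3 highest Muc2 levels, in Control replicates 3, 5 and 6, were all in the libraries with little Hoxa13, where Muc2 ran from 3215 to 9653 CPM, while Control replicates 1 and 2 had 4108 and 4187 CPM.

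Zg16, the lectin, had the opposite order of means. The lowest, median and highest levels were 1004, 1568 and 2172 CPM in the GF-AOMS libraries, 669.9, 1501 and 2000 CPM in GF-AOM, and 788.3, 919.8 and 1425 CPM in Control. In each GF group 5 of 6 libraries lay above the Control mean, and the ranges overlapped. The log2 difference was 0.63 in GF-AOMS (SE 0.251, unadjusted p 0.0221, adjusted p 0.244 in edgeR) and 0.50 in GF-AOM (SE 0.251, adjusted p 0.333). Zg16 is overlapped on the opposite strand by a long noncoding RNA and a small nuclear RNA. The libraries keep strand, but the strand setting of the counting is not given in the sources used here, so reads of those genes cannot be told apart from Zg16.

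Fcgbp, the mucus protein, and Clca1, the metalloprotease, were the genes whose group difference depended most on which Control libraries were set against it. Fcgbp had a lowest, median and highest level of 2060, 2540 and 5687 CPM in the GF-AOMS libraries, 1159, 3283 and 5501 CPM in GF-AOM, and 782.4, 1144 and 4398 CPM in Control. All 6 GF-AOMS libraries lay above the Control mean, as did 5 of 6 GF-AOM libraries, but the highest Control libraries sat within both GF ranges. The log2 difference was 0.58 in GF-AOMS (SE 0.47, adjusted p 0.53 in edgeR) and 0.76 in GF-AOM (SE 0.471, adjusted p 0.396). Clca1 had 3708, 4844 and 11805 CPM in the GF-AOMS libraries, 1244, 6703 and 11664 CPM in GF-AOM, and 1339, 4329 and 12090 CPM in Control. Its ranges overlapped almost wholly, with log2 differences of 0.20 in GF-AOMS (SE 0.51) and 0.32 in GF-AOM (SE 0.51). Clca1 was the most variable of the 9 genes, with a highest level 9.72 times its lowest over the 18 libraries.

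Inside the Control group the split of Fcgbp and Clca1 followed Hoxa13. Control replicates 3 to 6 had 782.4 to 1479 CPM of Fcgbp, and replicates 1 and 2 had 4398 and 3585 CPM. Clca1 was at 1339 to 4916 CPM in replicates 3 to 6 and at 12090 and 7182 CPM in replicates 1 and 2. The 12 GF libraries had 0.230 to 1.29 Fcgbp counts per Muc2 count, Control replicates 1 and 2 had 1.07 and 0.856, and Control replicates 3 to 6 had 0.112 to 0.250. Control replicates 1 and 2 lay inside the GF range, and Control replicates 3 to 6, with little Hoxa13, lay near or below its low end. With Control replicates 1 and 2 left out, Fcgbp was called in edgeR in both comparisons, with a log2 difference of 1.61 in GF-AOMS (SE 0.409, adjusted p 0.0258) and 1.79 in GF-AOM (SE 0.412, adjusted p 0.0177). It was the 1 call among the 9 genes in each comparison, where 6.91% of all genes were called in GF-AOMS and 6.2% in GF-AOM under the same setting, so the share among the 9 is near that of all genes. Muc2 then differed by -0.93 in GF-AOMS (SE 0.273, adjusted p 0.0515) and -0.63 in GF-AOM (adjusted p 0.164), neither called. With Control replicates 3 to 6 left out, the difference of Fcgbp was -0.43 in GF-AOMS and -0.26 in GF-AOM, that of Clca1 -0.66 and -0.54, and that of Muc2 -0.22 and 0.07, none of them called. With Hoxa13 and Hoxb13 as a term for colon position in the fit, Fcgbp differed by -0.12 in GF-AOMS and 0.09 in GF-AOM, and Muc2 by -0.38 and -0.09. Position along the colon and group cannot be told apart in Control replicates 3 to 6. Among the 12 GF libraries the lowest Fcgbp level was in GF-AOM replicate 1, which had 53.5 CPM of Hoxa13. That library had 1159 CPM of Fcgbp, 1244 CPM of Clca1 and 0.230 Fcgbp counts per Muc2 count. The next lowest GF library, GF-AOMS replicate 3, had 2060 CPM of Fcgbp, and the cause was not tested.

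**Figure D2:**
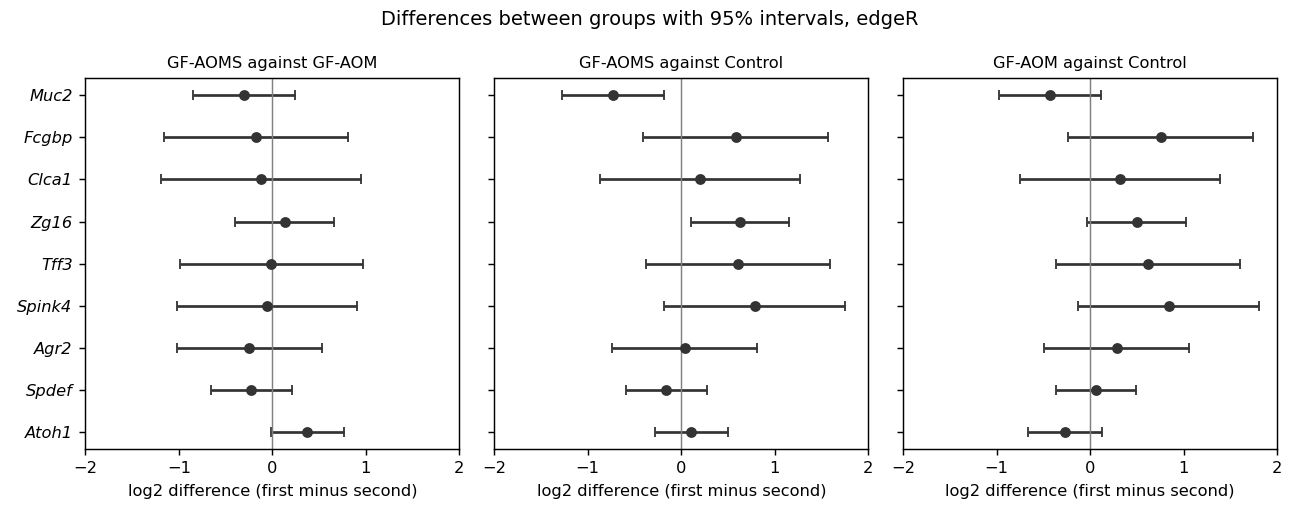
Log2 difference (first group minus second) of each goblet cell gene in the 3 comparisons, as points with 95% intervals from the edgeR fit of all 18 libraries. Every interval in GF-AOMS against GF-AOM includes 0, and against Control only those of Muc2 (-1.28 to -0.18) and Zg16 (0.10 to 1.16) in GF-AOMS do not; neither passes adjustment over all genes.

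The small secreted peptides and the folding enzyme spread widely within every group. Spink4, the protease inhibitor, had a lowest, median and highest level of 957.6, 1781 and 5252 CPM in the GF-AOMS libraries, 1377, 2378 and 4936 CPM in GF-AOM, and 566.8, 1466 and 3028 CPM in Control. Its log2 difference was 0.78 in GF-AOMS (SE 0.46, adjusted p 0.393 in edgeR) and 0.84 in GF-AOM (SE 0.461, adjusted p 0.357), the largest upward value of the 9 genes in both comparisons, with 5 of 6 libraries of each GF group above the Control mean and overlapping ranges. Tff3, the trefoil peptide, had 288.2, 506.7 and 1528 CPM in the GF-AOMS libraries, 245.5, 537.0 and 1432 CPM in GF-AOM, and 191.1, 469.6 and 672.5 CPM in Control. The medians of Tff3 lay close together and its few high values were all in GF libraries. Agr2, the disulphide isomerase, had 1293, 1787 and 4745 CPM in the GF-AOMS libraries, 1773, 2701 and 4933 CPM in GF-AOM, and 1466, 2352 and 4064 CPM in Control, and the groups overlapped over most of their range.

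Over all 18 libraries the lineage factors had the narrowest spans of CPM, although not within each group and, for Atoh1, not in FPKM. Spdef, the maturation factor, had 113.6, 156.5 and 168.4 CPM in the GF-AOMS libraries, 115.4, 179.2 and 224.2 CPM in GF-AOM, and 109.3, 150.1 and 259.9 CPM in Control. Its highest level was 2.38 times its lowest over the 18 libraries, and the groups overlapped. The log2 difference was -0.16 in GF-AOMS (interval -0.60 to 0.27) and 0.06 in GF-AOM (interval -0.37 to 0.49) against Control. Atoh1 had 45.6, 60.0 and 81.3 CPM in Control, and its difference from Control was 0.10 in GF-AOMS (interval -0.29 to 0.50) and -0.27 in GF-AOM (interval -0.66 to 0.12). Its highest level was 2.30 times its lowest.

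Across the 18 libraries the 9 genes did not vary as a single group. Of 36 pairs, 20 had a positive and 16 a negative Pearson correlation of log2 CPM, with a median r of 0.06 and a range of -0.71 to 0.88. After Benjamini-Hochberg adjustment over 45 relations (these pairs and the 9 relations with the ribosomal protein share given below), 14 pairs passed in a two-sided permutation test of Pearson's r, 11 of them positive and 3 negative. The share of pairs of other genes that would pass was not tested.

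The closest pair was Fcgbp and Clca1, the mucus protein and the protease, with r = 0.88 and Spearman's rho = 0.91 (permutation p = 1e-05 for each, the smallest that 100000 permutations can give, adjusted p = 0.000225). Their correlation was 0.84 without the 2 libraries farthest from the median of Fcgbp, 0.96 within the 12 GF libraries and 0.89 within the 6 Control libraries, so it was present on both sides of the comparison with Control. Neither followed Muc2, with r = -0.37 for Fcgbp (adjusted p = 0.225) and -0.23 for Clca1 (adjusted p = 0.479 in the permutation test). Muc2 instead followed Spdef, with r = 0.66 and rho = 0.77 (permutation p = 0.00281 and 0.00035, adjusted p = 0.0115 and 0.00459). That correlation was 0.66 without the 2 farthest libraries, 0.71 within the 12 GF libraries and 0.80 within the 6 Control libraries. Many other genes followed Muc2 more closely: Spdef was the 193rd gene by correlation with Muc2, and Muc2 the 15th by correlation with Spdef, whereas Fcgbp and Clca1 were each the 9th gene by correlation with the other.

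**Figure D3:**
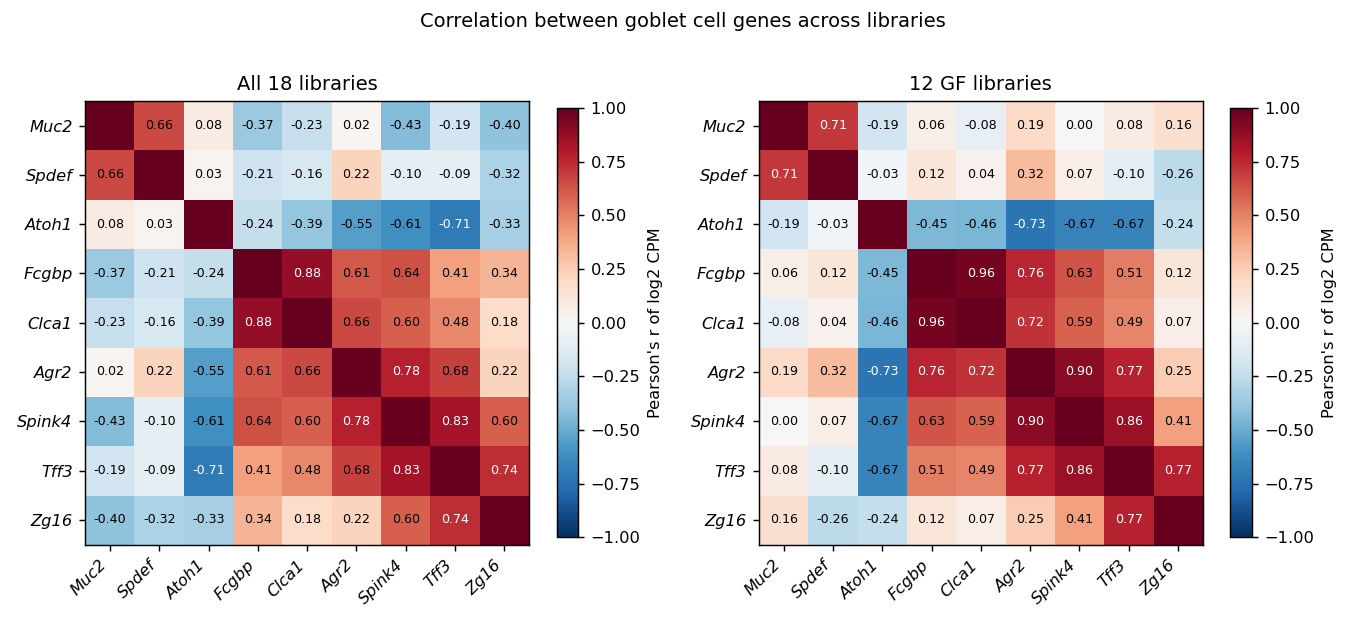
Pearson's r between the log2 CPM of each pair of goblet cell genes, over all 18 libraries (left) and over the 12 GF libraries (right), red positive and blue negative. Muc2 pairs with Spdef (0.66 and 0.71) and Fcgbp with Clca1 (0.88 and 0.96), while Atoh1 is negative with Tff3 (-0.71 and -0.67), Spink4 (-0.61 and -0.67) and Agr2 (-0.55 and -0.73).

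Spink4 was tied to Tff3 and Agr2 but also to the pair above, so the 9 genes did not fall into separate sets. These ties were not particular to goblet cell genes, since many other genes followed Spink4 more closely. By correlation with Spink4, Tff3 was the 1252nd gene, Agr2 the 1627th, Fcgbp the 2426th and Clca1 the 2645th. Spink4 was the 782nd gene by correlation with Tff3 and the 626th by correlation with Agr2. Spink4 correlated with Tff3 at r = 0.83 and rho = 0.75 (permutation p = 3e-05 and 0.00051, adjusted p = 0.000337 and 0.00459) and with Agr2 at r = 0.78 and rho = 0.74 (permutation p = 0.00019 and 0.00086, adjusted p = 0.00171 and 0.00553). Spink4 and Agr2 also passed with Fcgbp (r = 0.64 and 0.61, adjusted p = 0.0161 and 0.0218 in the permutation test) and with Clca1 (r = 0.60 and 0.66, adjusted p = 0.0233 and 0.0115), and Spink4 with Zg16 (r = 0.60, adjusted p = 0.0224). Tff3 and Agr2 passed by r = 0.68 (adjusted p = 0.0115 in the permutation test) but not by rho = 0.55 (adjusted p = 0.059), and r was 0.32 within the 6 Control libraries. Tff3 and Zg16 correlated at r = 0.74 and rho = 0.74 (permutation p = 0.00052 and 0.00078, adjusted p = 0.0039 and 0.00553). Without the 2 farthest libraries Spink4 with Tff3, Spink4 with Agr2 and Tff3 with Zg16 were at 0.79, 0.66 and 0.69, and within the 12 GF libraries at 0.86, 0.90 and 0.77. Atoh1 ran the other way, with r = -0.71 and rho = -0.66 to Tff3 (permutation p = 0.00096 and 0.00434, adjusted p = 0.00585 and 0.0178), and r = -0.67 within the 12 GF libraries.

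Several of these genes moved with a property of the whole library, the share of counts that fell in 85 ribosomal protein genes. How many other genes follow that share as closely was not tested. The relation therefore cannot be read as particular to goblet cell genes. The ribosomal protein share was 7.41% to 26.7% in GF-AOMS, 7.97% to 19.6% in GF-AOM and 5.34% to 15.7% in Control. Spink4 followed this share at r = 0.90 and rho = 0.93 (permutation p = 1e-05 for each, adjusted p = 0.000225), at 0.90 without the 2 farthest libraries, 0.90 within the 12 GF libraries and 0.88 within the 6 Control libraries. Tff3 followed it at r = 0.81 and rho = 0.76 (permutation p = 2e-05 and 0.00041, adjusted p = 0.0003 and 0.00459), at 0.70 without the 2 farthest. Agr2 had r = 0.70 and rho = 0.60 (permutation p = 0.00104 and 0.0087, adjusted p = 0.00585 and 0.0301) and Zg16 r = 0.63 and rho = 0.66 (permutation p = 0.00523 and 0.00358, adjusted p = 0.0181 and 0.0177), 0.59 and 0.56 without the 2 farthest. Atoh1 was negative at r = -0.56 (permutation p = 0.0169, adjusted p = 0.0423), but rho = -0.49 did not pass (permutation p = 0.0424, adjusted p = 0.106) and r was -0.28 without the 2 farthest libraries, on which it rests. Muc2 (r = -0.32), Spdef (-0.03), Fcgbp (0.45) and Clca1 (0.34) did not pass in the permutation test. With the share as a term in the edgeR fit, Spink4 differed from Control by -0.03 in GF-AOMS and 0.02 in GF-AOM, and Tff3 by -0.32 and -0.34, while Muc2 differed by -0.65 and -0.35. This term was chosen after the data were seen, and its part in the values of Spink4 and Tff3 beyond these fits was not tested.

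**Figure D4:**
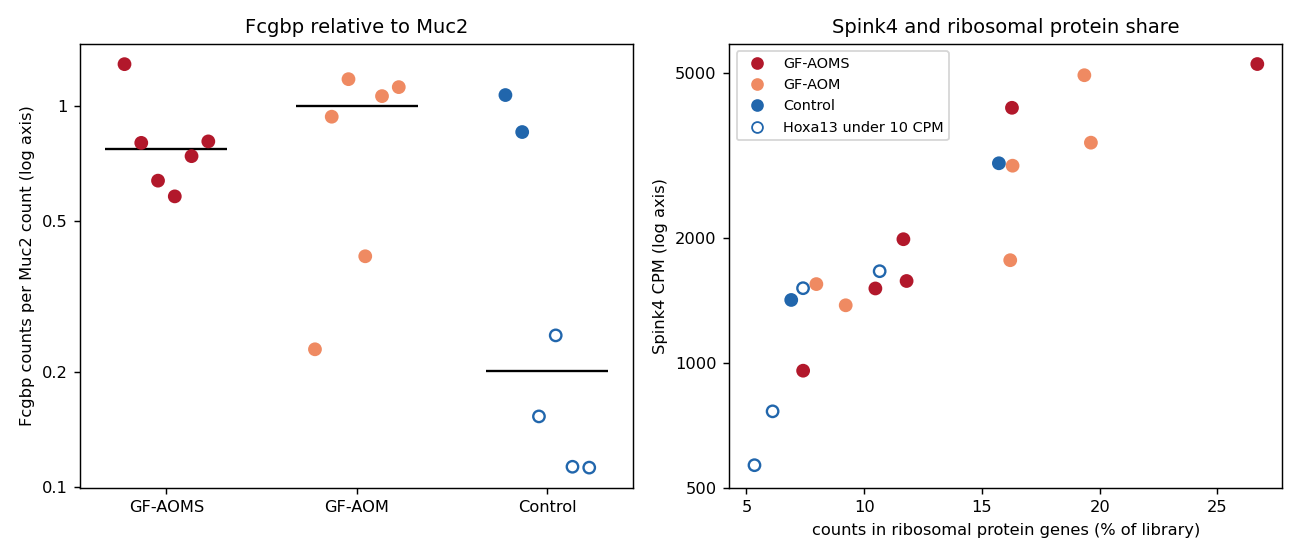
Left, counts of Fcgbp per count of Muc2 in each library (log axis), with group medians as bars; right, Spink4 level in CPM (log axis) against the percentage of counts in ribosomal protein genes. Open points are Control replicates 3 to 6, which hold 0.112 to 0.250 Fcgbp counts per Muc2 count, and Spink4 is higher where the ribosomal protein share is higher (r of log2 CPM 0.90 within the 12 GF and 0.88 within the 6 Control libraries).

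The genes outside the set that followed it most closely were ranked by their correlation with the mean of the 9 standardised log2 levels over 18 libraries. The first 10 were Ufm1, Gm11963, Tmem167, Mcfd2, Tceal9, Srp19, Mxra7, 5033406O09Rik, Tmed3 and Sar1a, with r from 0.91 for Ufm1 to 0.90 for Sar1a, and they share libraries and depth with the 9 genes. Mcfd2, Tmed3 and Sar1a act in cargo transport between the endoplasmic reticulum and the Golgi, and Srp19 is part of the signal recognition particle. The 9 genes were themselves uneven in that mean, from r = 0.87 for Agr2 to 0.03 for Muc2 and -0.41 for Atoh1. The genes nearest to single members were picked after their values were seen. For Fcgbp it was 9530053A07Rik (r = 0.95), the next gene listed downstream at chromosome 7, 28129466 to 28164811 on the same strand, then Capn9 (0.93), a calpain, and Mptx1 (0.91), a pentraxin. Whether 9530053A07Rik and Fcgbp share reads was not tested. For Clca1 it was Pnliprp2 (0.97), a lipase, then Ang4 (0.94), an antimicrobial ribonuclease. For Muc2 it was Qsox1 (0.91), a sulphydryl oxidase. Mptx1 split the Control group like Fcgbp, with 1120 to 26589 CPM in the 12 GF libraries, 14562 to 20144 CPM in Control replicates 1 and 2 and 198.9 to 257.6 CPM in the other Control libraries.

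Around the 9 genes, 5 lists of the mucus pathway were read gene by gene. None of 18 measured secretory lineage regulators (of 21 listed) was called in any comparison by edgeR, with 4, 4 and 0 at an unadjusted p under 0.05 in GF-AOM against Control, GF-AOMS against Control and GF-AOMS against GF-AOM. The shares of all genes under that p were 15.7%, 16.2% and 1.09%, so the counts of regulators lie near those of all genes. Hes6, a secretory lineage factor that opposes Hes1, came nearest, at 69.0, 88.9 and 96.7 CPM (lowest, median, highest) in GF-AOMS libraries and 70.0, 80.4 and 90.9 CPM in GF-AOM libraries, against 42.3, 54.8 and 81.9 CPM in Control. Its difference from Control was 0.61 in GF-AOMS (SE 0.142, adjusted p 0.058 in edgeR) and 0.51 in GF-AOM (SE 0.142, adjusted p 0.124), with 1 Control library inside the GF ranges, and with the colon position term it was 0.32 and 0.22. The other regulators of smallest p were Elf3, Cdx2 and Dll4, an epithelial ETS factor, an intestinal homeobox factor and a Notch ligand of secretory cells, at -0.41, -0.40 and -0.48 in GF-AOM against Control (adjusted p 0.215, 0.255 and 0.289 in edgeR).

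Enzymes that build mucin O-glycans likewise gave 0 calls among 36 measured genes of 41 listed, with 7, 9 and 1 at an unadjusted p under 0.05 in edgeR in the same order of comparisons, again beside 15.7%, 16.2% and 1.09% of all genes. Their log2 differences had either sign, 12 positive and 24 negative in GF-AOMS against Control (from -1.84 to 1.41) and 16 and 20 in GF-AOM against Control. B3gnt7, of this list, had a mean of 214.0 ± 143 CPM in GF-AOMS, 157.6 ± 120 CPM in GF-AOM and 80.6 ± 114 CPM in Control (SD, n = 6 each). B4galnt2, which adds the terminal sugar of the Sda antigen, had 40.1, 68.0 and 124.4 CPM in the GF-AOMS libraries, 41.1, 68.1 and 115.1 CPM in GF-AOM, and 58.9, 225.7 and 347.6 CPM in Control, a log2 difference of -1.55 in both (SE 0.38, adjusted p 0.0658 in GF-AOMS and 0.0987 in GF-AOM). Gcnt3, which branches mucin glycans, differed by -1.36 and -1.06 (adjusted p 0.117 and 0.233 in edgeR) and St3gal1, a sialyltransferase, by -1.07 and -0.79 (adjusted p 0.08 and 0.209) in GF-AOMS and GF-AOM against Control. With the colon position term Gcnt3 was at 0.16 and 0.38, St3gal1 at -0.45 and -0.21 and B4galnt2 at -0.74 and -0.79, so the sign of Gcnt3 turned and the other differences were smaller. Folding genes of the endoplasmic reticulum gave 0 calls among 25 measured of 28, with 1, 2 and 0 at an unadjusted p under 0.05, and Xbp1, the transcription factor of secretory capacity, differed by 0.24 in GF-AOMS (adjusted p 0.389) and 0.45 in GF-AOM (adjusted p 0.169).

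The calls in these lists were 2 genes, both lower in GF-AOMS than in Control, where 0.734% of all genes were called and 0.624% were called lower. Of 25 measured genes of granule traffic and release (of 28), 16 had a positive and 9 a negative log2 difference in GF-AOMS against Control. In GF-AOM against Control 18 were positive and 7 negative. In the same order 3 and 7 had an unadjusted p under 0.05 in edgeR, where 16.2% and 15.7% of all genes did. Among these genes Duox2, an oxidase of the epithelial surface, had 39.0, 44.8 and 59.7 CPM in GF-AOMS libraries and 33.0, 39.9 and 68.5 CPM in GF-AOM, against 47.2, 117.0 and 284.2 CPM in Control. The lowest Control library lay within both GF ranges. It fell by 1.44 on the log2 scale in GF-AOMS (SE 0.313, adjusted p 0.0421 in edgeR), and its value in GF-AOM was -1.48 (adjusted p 0.0792). Of 26 measured other mucins and mucus proteins (of 40), 9 had a positive and 17 a negative log2 difference in GF-AOMS against Control, from -1.80 to 2.09. In GF-AOM against Control 10 were positive and 16 negative. In each comparison 11 had an unadjusted p under 0.05 in edgeR, where 16.2% and 15.7% of all genes did. Retnlb, of this list, differed by 1.56 and 1.41, not called. Klk1, a kallikrein protease found in goblet cells, had 382.2, 584.8 and 666.3 CPM in GF-AOMS libraries and 364.4, 610.5 and 740.3 CPM in GF-AOM, against 753.0, 930.3 and 1331 CPM in Control. Every GF library lay below every Control library, Control replicates 1 and 2 included, which were at 776.0 and 852.4 CPM. Group ranges did not overlap for 0.798% of all genes in GF-AOMS against Control and 0.762% in GF-AOM against Control. Klk1 fell by 0.85 in GF-AOMS (SE 0.192, adjusted p 0.0495 in edgeR) and its value in GF-AOM was -0.76 (adjusted p 0.0987). With the colon position term Klk1 was at -0.82 and -0.74 and Duox2 at -0.96 and -1.03 in GF-AOMS and GF-AOM against Control, neither called, and no gene of the table was called with that term. The same held in edgeR without Control replicate 3, 4 or 6 and without GF-AOMS replicate 2, 4, 5 or 6.

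Markers of other cells did not all run level with the groups. The 9 epithelial markers gave 0 calls in each comparison, with 8 of 9 log2 differences negative against Control in both GF groups (median -0.30 in GF-AOMS and -0.41 in GF-AOM). At an unadjusted p under 0.05 in edgeR were 3 and 6 of them, where 16.2% and 15.7% of all genes were. Their summed level had a mean of 8418 CPM in GF-AOMS, 7741 CPM in GF-AOM and 10368 CPM in Control. Relative to this epithelial sum, which itself was lower in the GF groups, the 9 goblet cell genes stood at 2.51 ± 1.27 counts per epithelial count in GF-AOMS, 2.86 ± 0.79 in GF-AOM and 1.91 ± 0.74 in Control (SD, n = 6 each), with ranges of 1.35 to 4.32, 2.16 to 4.25 and 0.87 to 2.78 that overlapped. Of 10 absorptive colonocyte markers, 7 had a negative and 3 a positive log2 difference in GF-AOMS against Control. The 2 called, Car1 and Cdhr5, fell by 3.91 and 1.34 on the log2 scale (adjusted p 0.0304 each in edgeR), whereas the mean of Slc26a3, an anion exchanger, was 222.2 ± 72 CPM in GF-AOMS and 178.6 ± 125 CPM in Control, and that of Aqp8, a water channel, 194.3 ± 49.2 CPM in GF-AOMS and 168.8 ± 167 CPM in Control (SD, n = 6 each), neither called. Car1 is also among the 4 listed markers of proximal colon, and the Control libraries differ in Hoxa13 as given above. Of these markers 3 were measured, all with a negative log2 difference in GF-AOMS against Control. Cyp2c55, the other one called, fell by 3.73 (SE 0.665, adjusted p 0.0304 in edgeR). With the position term Cdhr5 was at -0.99 and not called. The summed level of the 10 absorptive colonocyte markers was 3023 to 5641 CPM in the GF-AOMS libraries and 2333 to 5627 CPM in GF-AOM. In Control that sum was 4867 to 27697 CPM, and Car1 alone reached 19166 CPM there. Of 6 measured enteroendocrine markers, 4 had a negative and 2 a positive log2 difference in GF-AOMS against Control. The granins Chga and Chgb fell, with log2 differences of -1.98 and -1.88 (adjusted p 0.0304 each in edgeR), and were at -1.21 and -1.16, not called, with the colon position term. The mean of Pyy, a gut hormone, was 67.6 ± 34 CPM in GF-AOMS and 44.7 ± 27.4 CPM in Control (SD), and it was not called. Against Control in both GF groups, all 6 smooth muscle and 3 plasma cell markers had positive log2 differences. All 4 fibroblast and 3 endothelial markers had negative ones. Stem and progenitor, Paneth and deep crypt, and macrophage markers had either sign over the 2 comparisons. None of these was called in edgeR, where 0.734% of all genes were in GF-AOMS and 0.00918% in GF-AOM. Whether goblet and enteroendocrine genes differed from each other in response was not tested, nor was the part of cell makeup in the goblet cell values.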

How the data were processed

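Reads of 18 colorectal libraries were counted by the authors. The submitters' processing notes name featureCounts, DESeq2 and GRCm39, without versions or an aligner. The table's coordinates match GENCODE M21 (GRCm38) for all 9 genes within 0 to 42 bases, so no coordinate is given on GRCm39. The deposited counts are whole read counts per gene, per the file headers, and the deposited FPKM values are the authors' own. All 18 libraries were fitted together in edgeR 4.0.16 (R 4.3.3) with TMM scaling, a two-sided quasi-likelihood test on 15 residual degrees of freedom and Benjamini-Hochberg adjustment over 10897 genes, and adjusted p under 0.05 is a call. Log2 CPM uses a prior count of 2. FPKM served to compare genes and, in limma 3.58.1 on log2(FPKM + 1), as an alternative beside DESeq2 1.42.0. The scripts were tested on simulated counts. Named genes are the 9 members, every called gene of each list or otherwise the 4 smallest p in GF-AOM against Control (of which the nearest are described), the 10 genes most like the members' mean, and position and epithelial markers. B3gnt7, Retnlb, Slc26a3, Aqp8, Pyy and the genes nearest to single members fall outside this rule and were picked with their values known. The members and lists were chosen with earlier results of these data known. Deviations of same-numbered libraries correlated over 0.1 in 2 of 6 pairs in GF-AOM against Control, 4 of 6 in GF-AOMS against Control and 1 of 6 in GF-AOMS against GF-AOM, so the numbers were not taken as pairs.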

Additional observations from a re-analysis of the deposited data

Results flagged for a closer look

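Fcgbp in GF-AOMS replicate 1 was at 5687 CPM, far above the other GF-AOMS libraries, which lay between 2060 and 2792 CPM. On the log2 CPM scale the gap exceeded Dixon's 95% critical value for 6 samples, at 0.701 of the group's range. It was 1 such value in 27 combinations of gene and group, and chance alone flags about 1 in 20. The same library had the highest Clca1 level of its group, 11805 CPM.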

How the results depend on the processing

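No goblet cell gene was called under any alternative except Fcgbp with Control replicates 1 and 2 left out together, where 1 of 9 was called in each comparison with Control. Over all genes, edgeR called 1 in GF-AOM against Control, 80 in GF-AOMS against Control and 0 in GF-AOMS against GF-AOM. In that order DESeq2 called 284, 375 and 3. For the first and second comparison, limma called 0 and 19 on log2(FPKM + 1) and 0 and 20 on log2(FPKM + 0.1), library totals alone gave 0 and 28, the colon position term 0 and 0, the replicate block 2 and 33, and fits of only the 2 groups compared 0 and 0. Upper-quartile factors gave 47 in GF-AOMS against Control. Without Control replicates 1 and 2 the counts were 676 and 753, and without Control replicates 3 to 6 GF-AOMS against Control gave 0. The ribosomal protein share term, added after seeing the data, gave 0, 8 and 3, and leaving out 5 libraries with TMM factors under 0.9, also added then, gave 132, 277 and 1. Leaving out each library in turn, the counts of all genes ran from 0 to 356, 0 to 493 and 0 to 0, and those of goblet cell genes from 0 to 0. The high counts came without Control replicate 2 (356 and 493), and in GF-AOMS against Control 0 came without Control replicate 3, 4 or 6 or without GF-AOMS replicate 2, 4, 5 or 6.

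No goblet cell gene was called in the main fit, so every sign that turned was that of a difference uncalled there. Fcgbp, called at 1.61 in GF-AOMS and 1.79 in GF-AOM without Control replicates 1 and 2, was negative without Control replicates 3 to 6. In GF-AOMS against Control, Agr2 was at -0.14 in limma with either pseudocount, -0.10 with library totals alone, -0.14 with the position term, -0.01 with the replicate block, -0.42 without Control replicates 3 to 6, -0.56 with the ribosomal protein share and -0.45 without the 5 libraries. Clca1 was at -0.45, -0.66, -0.09 and -0.19 with the position term, without Control replicates 3 to 6, with the ribosomal protein share and without the 5 libraries. Fcgbp was at -0.12 and -0.43, and Spdef at 0.11 and 0.24, with the position term and without Control replicates 3 to 6. Tff3 was at -0.32 with the ribosomal protein share and -0.14 without the 5 libraries, and Spink4 at -0.03 with the share. In GF-AOM against Control, Spdef was at -0.01 with library totals alone and -0.10 without Control replicates 1 and 2, and Clca1 at -0.33 with the position term. Without Control replicates 3 to 6, Muc2, Fcgbp, Clca1 and Agr2 were at 0.07, -0.26, -0.54 and -0.19. Tff3 and Agr2 were at -0.34 and -0.25 with the share, and Tff3 at -0.03 without the 5 libraries. In GF-AOMS against GF-AOM, Clca1 was at 0.06 and 0.07 in limma, and Tff3 at 0.02 with the share. The cause was not tested.

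Leaving out each library in turn also turned signs. In GF-AOM against Control, Spdef ran from -0.03 to 0.24. In GF-AOMS against Control, Clca1 ran from -0.10 to 0.62, Agr2 from -0.23 to 0.24 and Spdef from -0.25 to 0.02. In GF-AOMS against GF-AOM, Tff3 ran from -0.41 to 0.34, Fcgbp from -0.47 to 0.02, Clca1 from -0.42 to 0.11, Zg16 from -0.02 to 0.25 and Spink4 from -0.40 to 0.22. The replicate block rests on shared numbers only: deviations of same-numbered libraries correlated from -0.62 to 0.52 over the 3 comparisons, and the block left 0 goblet cell genes called. Each of the 9 genes had at least 1329 counts in every library.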
